A study of Macaca mulatta with 24 samples.

Results

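Dendritic cells take up antigen in tissues and present it to T lymphocytes. Type 1 conventional dendritic cells carry CLEC9A, a receptor for material exposed by dead cells, and XCR1, a chemokine receptor, and their formation depends on the transcription factors BATF3 and IRF8. Type 2 conventional dendritic cells carry CD1C, which presents lipid antigens, and FCER1A, a chain of the IgE receptor. Both types arise under the growth factor receptor FLT3, and cells that leave the gut for the lymph nodes use the chemokine receptor CCR7. The members described here were CLEC9A, XCR1, BATF3, FLT3, IRF8, CADM1, CD1C, FCER1A and CCR7, taken from a list of 10 genes chosen by the lower mean levels of its leading members on day 7 than in the controls. Of these 10 genes, 8 were found by symbol among the array probes and BATF3 by its gene identifier, so that 9 genes with 12 probes stood among 13460 named genes tested. CLEC10A was not analysed here.

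The samples were whole colon tissue from 24 male rhesus macaques, 1 animal per array. Control animals were sham-irradiated and were labelled as day 4 samples (n = 4). The irradiated animals received total-body irradiation (TBI) from a cobalt-60 source at 6.7 Gy or 7.4 Gy and were sampled on day 4 (n = 4 per dose), day 7 (n = 4 per dose) or day 12 (n = 2 per dose). The last day was taken from the sample titles and the study's methods, since a protocol label names a later one. No drug, transgene or deletion was named for any group. Because whole tissue was measured, fewer cells of a type and less RNA per cell cannot be told apart.

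Levels are log2 intensities after subtraction of each array's 75th percentile, so that 0 is that percentile and a difference of -1 is a 2-fold lower level. They are compared within a probe and not between genes. A gene was called where the adjusted p from limma across 38220 probes was under 0.05 and the change was at least 2-fold. The share of probes well above background was 66.7 to 85.0% per array, and arrays of the same group correlated with r of 0.963 to 0.985. The controls lay on slides 1 to 4, always at array position 1, while day 7 and day 12 samples lay at positions 3 and 4. Array position and group therefore cannot be told apart for day 7 or day 12 against control. Day 4 samples lay at positions 1 and 2 after 6.7 Gy and only at position 2 after 7.4 Gy. The latter shared no position with the controls.

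CLEC9A was lower on day 4 at both doses, lowest on day 7 and nearer to the controls on day 12. In the 4 controls its level was -3.82, -2.29, -2.50 and -2.70, well above background on each array. On day 4 it was -6.60, -4.06, -3.42 and -6.21 after 6.7 Gy, and 3 of these 4 arrays lay below every control. After 7.4 Gy it was -3.85, -5.22, -5.45 and -4.99 on day 4, and 4 of 4 arrays lay below every control, the first by a narrow margin; 12.6% of all genes were without overlap on the low side in that group. On day 4, CLEC9A was well above background on 2 of 4 arrays after 6.7 Gy and on 3 of 4 after 7.4 Gy. The day 4 means therefore rest in part on dim spots. The fall was 4.74-fold after 6.7 Gy (log2 difference -2.25, SE 0.68, limma adjusted p = 0.0425) and 4.15-fold after 7.4 Gy (-2.05, adjusted p = 0.0393). These comparisons share the control arrays with the day 7 comparison by which the genes were chosen. At 6.7 Gy the call was lost without control replicate 2, 3 or 4 or day 4 replicate 1 or 4 (adjusted p of 0.0848 to 0.131), and at 7.4 Gy without control replicate 2, 3 or 4 or day 4 replicate 2, 3 or 4 (0.0767 to 0.0968). Within the 2 slides that held both groups, the difference was -1.76 on average at 6.7 Gy, with 1 of 2 slides lower, and -1.94 at 7.4 Gy, with 2 of 2 lower. Of 16 other ways of processing or fitting, 10 ended the 6.7-Gy call and 7 the 7.4-Gy call, and the smallest differences were -0.96 and -1.02 with normexp background correction. Array position as a block was among those that ended both (limma adjusted p = 0.0895 at 6.7 Gy and 0.208 at 7.4 Gy).

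On day 7 CLEC9A was -7.12, -5.53, -4.59 and -7.46 after 6.7 Gy and -7.22, -7.52, -7.94 and -7.68 after 7.4 Gy. Neither group overlapped the controls, as for 4.07% of all genes after 6.7 Gy and 2.99% after 7.4 Gy on the low side. The 7.4-Gy arrays lay close together at the bottom of the range. The 6.7-Gy mean was 10.2-fold below control (-3.35), with 1 of 4 arrays well above background. None of the 4 arrays at 7.4 Gy was well above background, so that only a bound holds there, at least 11.7-fold lower than control. Those values chose the gene and carry no test. The bound takes, on each array, the higher of the probe's own signal and the lowest signal of any probe that was well above background. Paired by slide, the 6.7-Gy day 7 array was lower on 4 of 4 slides (-4.76 to -2.10), and the 7.4-Gy array on 2 of 2. With normexp background correction, which draws dim spots together, the day 7 differences were -1.22 and -1.44.

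On day 12 CLEC9A was -3.58 and -5.40 after 6.7 Gy and -4.18 and -3.46 after 7.4 Gy. Each dose had 1 array within the control range and 1 below it. The differences from control were -1.66 (95% interval -3.41 to 0.08, adjusted p = 0.79) and -0.99 (-2.74 to 0.75, adjusted p = 0.888), neither called. Ordered by mean, the groups ran from control through day 12 at 7.4 and 6.7 Gy and day 4 at 7.4 and 6.7 Gy to day 7 at 6.7 and 7.4 Gy. Each neighbouring pair in that order overlapped, and the day 7 groups, with 1 and 0 of 4 arrays well above background, have no settled order.

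**Figure D1:**
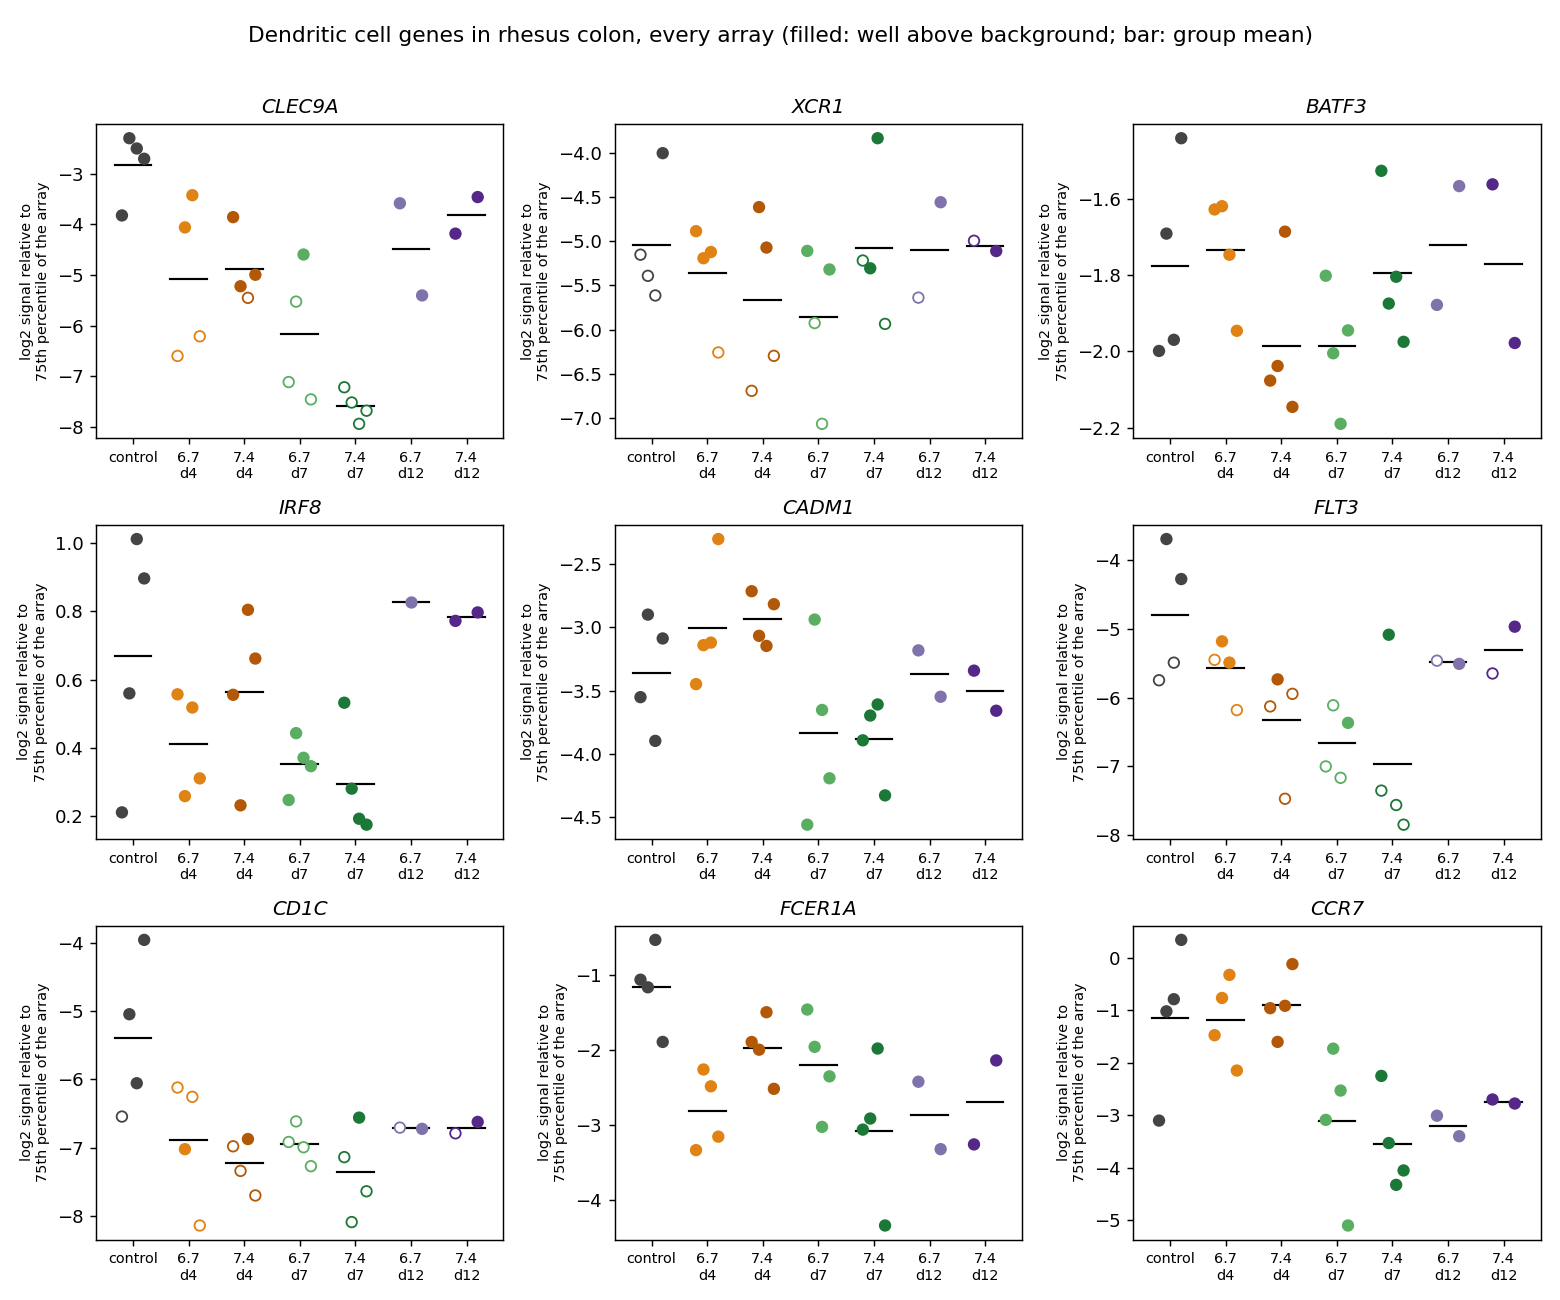
Level of each dendritic cell gene (log2 intensity minus the array's 75th percentile, brightest probe) on every array, by group. Points are single animals, open where the spot was not well above background, and bars are group means. CLEC9A lies between -3.82 and -2.29 in the controls and at -7.22 or below on day 7 after 7.4 Gy, while BATF3 stays between -2.19 and -1.44 in all groups.

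The other members tied to type 1 cells, BATF3, IRF8, CADM1 and XCR1, were called in none of the comparisons tested for them. BATF3, detected on every array, had levels of -1.999 to -1.44 in the controls, -2.19 to -1.80 on day 7 after 6.7 Gy and -1.97 to -1.52 after 7.4 Gy. The groups overlapped throughout, with means differing from control by 0.04 after 6.7 Gy and -0.21 after 7.4 Gy on day 4, and by -0.21 and -0.02 on day 7. IRF8, which type 1 and plasmacytoid dendritic cells and B lymphocytes use, had levels of 0.21 to 1.01 in the controls and 0.17 to 0.53 on day 7 after 7.4 Gy. Its differences on day 7 were -0.32 and -0.38 by the brighter probe and -0.42 and -0.54 by the other. One day 12 spot of the brighter probe at 6.7 Gy was an outlier and was left out, so that 1 array stood for that group. The 2 IRF8 probes correlated with r = 0.367 over 23 arrays that share the 7 groups.

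CADM1, an adhesion molecule of type 1 dendritic cells that epithelial and nerve cells also carry, had differences of 0.36 and 0.42 on day 4 and -0.48 and -0.52 on day 7. Its control levels of -3.90 to -2.90 overlapped every group. A second CADM1 probe followed the first with r = 0.955 over 24 arrays. XCR1, the receptor for XCL1, was close to the detection limit, with 1 of 4 control arrays well above background. Its difference was -0.82 on day 7 after 6.7 Gy and -0.03 after 7.4 Gy, with overlap in both. The signs of XCR1 and BATF3 on day 7 after 7.4 Gy depended on the processing, their differences being near 0.

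FLT3, the receptor for the growth factor FLT3LG, was dim, with 2 of 4 controls well above background. Control levels were -5.75, -3.69, -5.49 and -4.27. Day 7 levels were -7.00, -6.11, -7.17 and -6.37 after 6.7 Gy, all below the controls (as for 4.07% of all genes). After 7.4 Gy they were -7.35, -5.08, -7.56 and -7.85, where 1 array lay within the control range. Its day 7 differences were -1.86 and -2.16 as a description. On day 4 after 7.4 Gy the levels were -6.13, -5.73, -7.47 and -5.94, and the difference of -1.52 narrowly missed the call (adjusted p = 0.0519). A call came with slide (limma adjusted p = 0.0319), scan day (0.0477) or replicate number (0.0178) as a block. Omitting control replicate 1 (0.0331), control replicate 3 (0.0449) or 7.4 Gy day 4 replicate 2 (0.0472) also gave a call. Under all other settings and omissions that tested it, FLT3 stayed uncalled there. Only 1 of its 4 arrays in that group was well above background. FLT3LG itself was not called in any group, with differences of -0.25 and 0.43 on day 4 and -0.49 and -0.27 on day 7.

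The type 2 gene CD1C had a mean below that of the controls in every irradiated group. Its control levels were -6.54, -5.04, -6.06 and -3.96, a wide spread with the first not well above background. On day 4 after 7.4 Gy they were -6.98, -7.34, -6.87 and -7.70, all below the controls (as for 12.6% of all genes). Only 1 of these arrays was well above background. The fall of 3.54-fold was called (-1.82, limma adjusted p = 0.0108), and the call stood without any 1 of the 8 arrays. A block for array position, alone or beside scan day, ended it, as did the fit of only the groups compared, normexp background correction and the methods' t-test. On day 4 after 6.7 Gy the levels were -6.12, -7.02, -6.25 and -8.14, which overlapped the controls, and the difference of -1.48 was not called (adjusted p = 0.0515). Without control replicate 1 (adjusted p = 0.0244) or 6.7 Gy day 4 replicate 1 (0.0449) it was. Under all other settings and omissions that tested it, this difference stayed uncalled. Only 1 of 4 CD1C arrays in that group was well above background. On day 7 after 6.7 Gy none of the 4 CD1C spots was well above background, which gives a level at least 1.59-fold lower than control. After 7.4 Gy 1 of 4 was, and the mean difference was -1.96. On day 12 it was below the controls on all 4 arrays, from -6.79 to -6.62, without a call (adjusted p = 0.724 and 0.68 at 6.7 and 7.4 Gy). Of all genes, 8.18% and 8.16% were likewise below the controls without overlap.

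FCER1A, which mast cells and basophils also express, was well above background on the 4 control arrays. Its control levels were -1.06, -1.17, -0.53 and -1.89. On day 4 after 6.7 Gy they were -3.33, -2.26, -2.48 and -3.15, with no overlap (as for 8.86% of all genes), a fall of 3.12-fold (-1.64, SE 0.44, adjusted p = 0.0245). The call was lost without control replicate 1 or 3 or day 4 replicate 1 or 4 (adjusted p of 0.0543 to 0.0732). Array position as a block, alone or beside scan day, and the methods' t-test also ended it. After 7.4 Gy the day 4 levels were -1.89, -1.995, -1.50 and -2.52, and the difference of -0.81 was not called (adjusted p = 0.206). Day 7 levels were -1.46, -1.96, -3.02 and -2.35 after 6.7 Gy and -3.06, -2.91, -1.98 and -4.33 after 7.4 Gy. The mean differences were -1.03 and -1.91, and the 7.4-Gy arrays did not overlap the controls (as for 2.99% of all genes). On day 12 FCER1A was -2.42 and -3.32 after 6.7 Gy and -3.26 and -2.14 after 7.4 Gy. These arrays lay below every control, as for 8.18% and 8.16% of all genes with 2 arrays per dose. The differences of -1.71 and -1.53 were not called (limma adjusted p = 0.504 and 0.525). Of 10 mast cell genes tested, 0 were called on day 4 after 6.7 Gy and 4 had an unadjusted p under 0.05, as 27.9% of all genes had. CPA3, a mast cell protease, differed there by -0.08, and MS4A2, the beta chain of the same IgE receptor, by -0.73. The summed mast cell signal was 6.08 to 7.11 in the controls. On day 4 it was 4.86 to 5.86 after 6.7 Gy and 4.59 to 6.89 after 7.4 Gy. On day 7 it was 4.39 to 6.85 and 5.32 to 8.42, and on day 12 it was 5.90 to 8.75 and 6.04 to 6.89, in the same order. The part of the mast cell signal in the FCER1A result was not tested.

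CCR7, which guides dendritic cells as well as naive T and B lymphocytes to lymph nodes, lay within its control range on day 4 and had lower means on days 7 and 12 by its brighter probe. A second, dimmer probe, well above background on 1 of 4 controls, differed by 0.04 and -0.14 on day 7 and by -0.55 and 0.01 on day 12. Levels of the brighter probe were -3.10, -1.02, -0.79 and 0.34 in the controls. On day 4 they were -1.48, -0.77, -0.33 and -2.15 after 6.7 Gy and -0.96, -1.60, -0.92 and -0.12 after 7.4 Gy, inside the control range, with differences of -0.04 (95% interval -1.46 to 1.39) and 0.24 (-1.18 to 1.67). On day 7 they were -3.09, -1.73, -2.53 and -5.10 after 6.7 Gy and -2.25, -3.53, -4.33 and -4.05 after 7.4 Gy, mean differences of -1.97 and -2.40 with overlap through the single low control. On day 12 they were -3.01 and -3.40 after 6.7 Gy and -2.70 and -2.78 after 7.4 Gy, lower than every day 4 array, as 7.8% of all genes were.

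The day 12 arrays, set against the day 4 arrays over both doses, share no array with the comparison that chose the genes. CCR7 was 3.82-fold lower on day 12 than on day 4 (-1.93, SE 0.59, 95% interval -3.17 to -0.70, adjusted p = 0.0231). It was the only one of the 9 genes called in that comparison, in which 3.81% of all genes were called lower and 7.62% in either direction. The call was lost without any 1 of the 4 day 12 arrays (adjusted p of 0.0564 to 0.0789), and the adjusted p ranged from 0.00518 to 0.0789 over 26 alternatives. Array position could not be fitted as a block here, since day 12 samples lay at position 4 and day 4 samples at positions 1 and 2. The dimmer CCR7 probe differed by -0.26 (adjusted p = 0.651), and the probes correlated with r = 0.259 over 24 arrays. CLEC9A went the other way, 0.82 higher on day 12 than on day 4 without a call (95% interval -0.41 to 2.06, adjusted p = 0.329).

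Counted over the 9 genes, 2 were called lower on day 4 after 6.7 Gy (CLEC9A and FCER1A), where 1.98% of all genes were called lower, and 2 after 7.4 Gy (CLEC9A and CD1C), where 3.98% were. The count at 6.7 Gy was 0 without control replicate 3 or 6.7 Gy day 4 replicate 4, and 1 without control replicate 2 or 4 or 6.7 Gy day 4 replicate 1. At 7.4 Gy it was 1 without control replicate 2 or 4 or 7.4 Gy day 4 replicate 3 or 4. The median difference of the 9 genes was -0.33 and -0.63, against -0.04 and -0.02 over all named genes. On day 7 the measured mean was at least 2-fold lower for 5 of 9 genes at each dose (CLEC9A, FLT3, CD1C, FCER1A and CCR7), where 2.15% and 2.27% of all genes were. With genes not well above background at their bound, CD1C left the 6.7-Gy count, which was then 4. Arrays did not overlap the controls for 3 genes at each dose, against 4.07% and 2.99% of all genes. The day 7 counts follow from how the genes were chosen and nothing is read from them. Among the 9 genes, FCER1A after 6.7 Gy lay just inside the 2-fold line (-1.03) and XCR1 after 6.7 Gy just outside it (-0.82).

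On day 12, limma called 0 of the 9 genes at either dose, with 0.0149% of all genes called in either direction. At an unadjusted p under 0.05 and a change of at least 2-fold there were 3 genes after 6.7 Gy (CCR7, CD1C and FCER1A) and 2 after 7.4 Gy (CD1C and FCER1A), against 1.83% and 1.68% of all genes, and the methods' t-test also gave 0 calls.

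**Figure D2:**
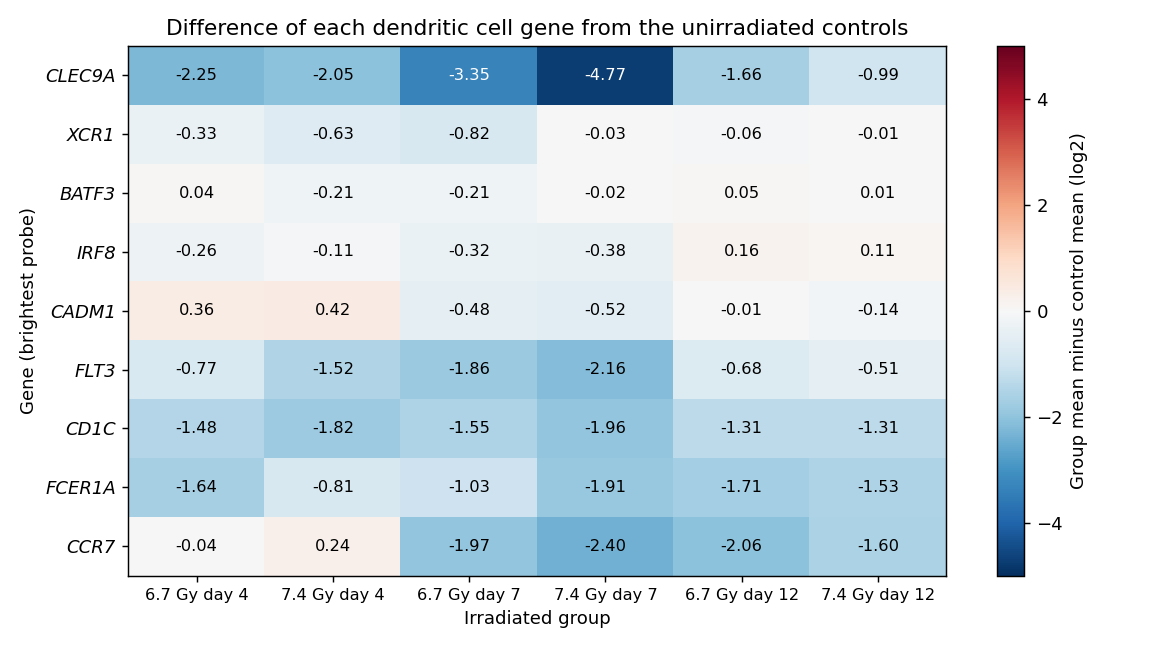
Mean difference from the unirradiated controls (log2, color) for each dendritic cell gene (rows, brightest probe) in the 6 irradiated groups (columns). CLEC9A, FLT3, FCER1A and CCR7 are at least 1 log2 unit lower on day 7 at both doses, CD1C is at -1.96 on day 7 after 7.4 Gy, and CCR7 is at -0.04 and 0.24 on day 4; CLEC9A after 7.4 Gy and CD1C after 6.7 Gy on day 7 were not well above background on any of the 4 arrays, so that only the bounds in the text hold there.

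The doses were compared directly on each day. limma called 0 of the 9 genes between 7.4 and 6.7 Gy on days 4, 7 or 12, as it called 0% of all genes, and no member reached an unadjusted p under 0.05. The methods' t-test likewise gave 0. On day 7 these comparisons use arrays that also chose the genes, though not the difference from control. CLEC9A had only a bound on day 7 after 7.4 Gy, at least 1.15-fold below the 6.7-Gy mean (measured means -7.59 and -6.17). With 0 and 1 of 4 arrays well above background, nothing is read from its limma result, which was not a call. FCER1A differed by -0.87 on day 7 (95% interval -1.80 to 0.05, adjusted p = 1).

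Other dendritic cell pathway genes, in 5 lists, were measured beside the members, 56 of 72 genes being tested. On day 4, 5 were called higher and 1 lower after 6.7 Gy, and 6 higher and 3 lower after 7.4 Gy, where 4.31% and 8.24% of all genes were called in either direction. CCL20, which attracts CCR6-bearing immature dendritic cells and lymphocytes, rose 9.16-fold (3.19, adjusted p = 0.00461) and 11.5-fold (3.52, adjusted p = 0.000831). Its control range of -2.03 to -0.71 lay below every day 4 array, as for 8.98% of all genes after 6.7 Gy and 13.5% after 7.4 Gy. Both calls stood without any 1 array. Blocking on position together with scan day ended both, and blocking on position alone ended the one at 7.4 Gy. CCL19, a ligand of CCR7, rose by 2.14 (adjusted p = 0.0287) and 2.51 (0.00637) on the log2 scale. Its call at 6.7 Gy was lost without control replicate 1 or 6.7 Gy day 4 replicate 1, 2 or 3 (adjusted p of 0.0529 to 0.0913). Array position as a block, alone or beside scan day, and the methods' t-test ended the CCL19 call at both doses. The fit of only the groups compared and slide as a block also ended the one at 6.7 Gy.

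Of 14 genes of type 1 cells, 1 was called lower on day 4 after 6.7 Gy, and 1 higher and 1 lower after 7.4 Gy. Of all genes, 4.31% and 8.24% were called in either direction. Means lay below control for 8 of the 14 at each dose, as for 54.1% and 51.6% of all genes. CLNK, an adaptor protein, fell by 1.08 (adjusted p = 0.0486) and 1.17 (0.0196) on day 4. The first call was lost without any 1 of the 8 arrays (adjusted p of 0.0515 to 0.138), the second without control replicate 2 or 7.4 Gy day 4 replicate 1 or 4 (0.058 to 0.0746). IDO1, a tryptophan-degrading enzyme made by many cell types under interferon, rose by 2.62 after 7.4 Gy (limma adjusted p = 0.0215). Its call was lost without control replicate 1 or 4 or 7.4 Gy day 4 replicate 3 (0.0502 to 0.0835). Array position as a block and the methods' t-test each ended the IDO1 call and both CLNK calls.

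Among 10 genes of type 2 cells, CLEC4A, an inhibitory lectin receptor of myeloid cells, rose by 1.19 (adjusted p = 0.018) and 1.40 (0.0033). Without control replicate 4 or 6.7 Gy day 4 replicate 1 the 6.7-Gy call was lost (0.0503 to 0.0537). After 7.4 Gy ZEB2, a transcription factor, rose by 1.04 (0.00069) and KLF4, a transcription factor that mature colon epithelium also expresses, fell by 1.13 (0.000725). Both lie close to the 2-fold line, and ZEB2 dropped below it without control replicate 1 or 7.4 Gy day 4 replicate 1 (0.97 to 0.996) and KLF4 without the latter (-0.98).

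Of 13 genes of activated or migrating cells, CCL17, a ligand of CCR4, rose by 3.00 (adjusted p = 0.0227) and RELB, an NF-kB subunit, by 1.27 (0.012) after 6.7 Gy, and PDCD1LG2, a ligand of PD-1, by 1.30 (0.0199) after 7.4 Gy. Only 1 of 4 controls had CCL17 well above background, and its 6.7-Gy range overlapped theirs. The CCL17 call was lost without control replicate 2 or 3 or 6.7 Gy day 4 replicate 1, 2 or 3 (0.0559 to 0.0681), that of RELB fell below 2-fold without control replicate 1 (0.91), and that of PDCD1LG2 was lost without control replicate 1 or 7.4 Gy day 4 replicate 3 (0.0501 to 0.0714). Array position, slide or scan day as a block also ended the PDCD1LG2 call. CSF1, a macrophage growth factor, fell by 1.14 after 7.4 Gy (limma adjusted p = 9.52e-05), or by 0.97 without control replicate 1. The day 4 calls included none of the 9 plasmacytoid genes, of which 1 after 6.7 Gy and 2 after 7.4 Gy had an unadjusted p under 0.05 (27.9% and 36.5% of all genes). Other probes than the brightest were called for CD274, a PD-1 ligand (2.56, adjusted p = 0.00672, against -0.38 and 0.19 for the brightest), and SLAMF8, a macrophage and dendritic cell receptor (1.40, 0.0149, against 0.93 and 0.121), after 7.4 Gy.

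On day 7, limma called 0 of the 56 pathway genes at either dose, where 0.386% and 0.49% of all genes were called in either direction. An unadjusted p under 0.05 was found for 14 and 15 of them and for 10.6% and 12.8% of all genes, and the methods' t-test gave 0. TLR7, a receptor for RNA in plasmacytoid cells and B lymphocytes, differed by -1.67 (adjusted p = 0.264) and -2.13 (0.105). XCL1, the ligand of XCR1 made by T and natural killer cells, differed by -1.19 and -1.67. For WDFY4, needed for cross-presentation, the brightest probe was near control (0.00 and 0.08) while another probe fell by 1.11 (adjusted p = 0.048) and 1.49 (0.00969). For CCL5, 2 further probes were called lower at both doses while the brightest differed by -1.89 (0.0682) and -1.73 (0.0927). On day 12 none of the 56 was called at either dose (unadjusted p under 0.05 for 3 and 3, and for 6.94% and 7.13% of all genes, the methods' t-test 0), although a dimmer probe of TLR9, a receptor for DNA, was higher by 1.51 (adjusted p = 0.0179) and 1.40 (0.0292) while its brightest probe differed by -0.23 and -0.11.

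**Figure D3:**
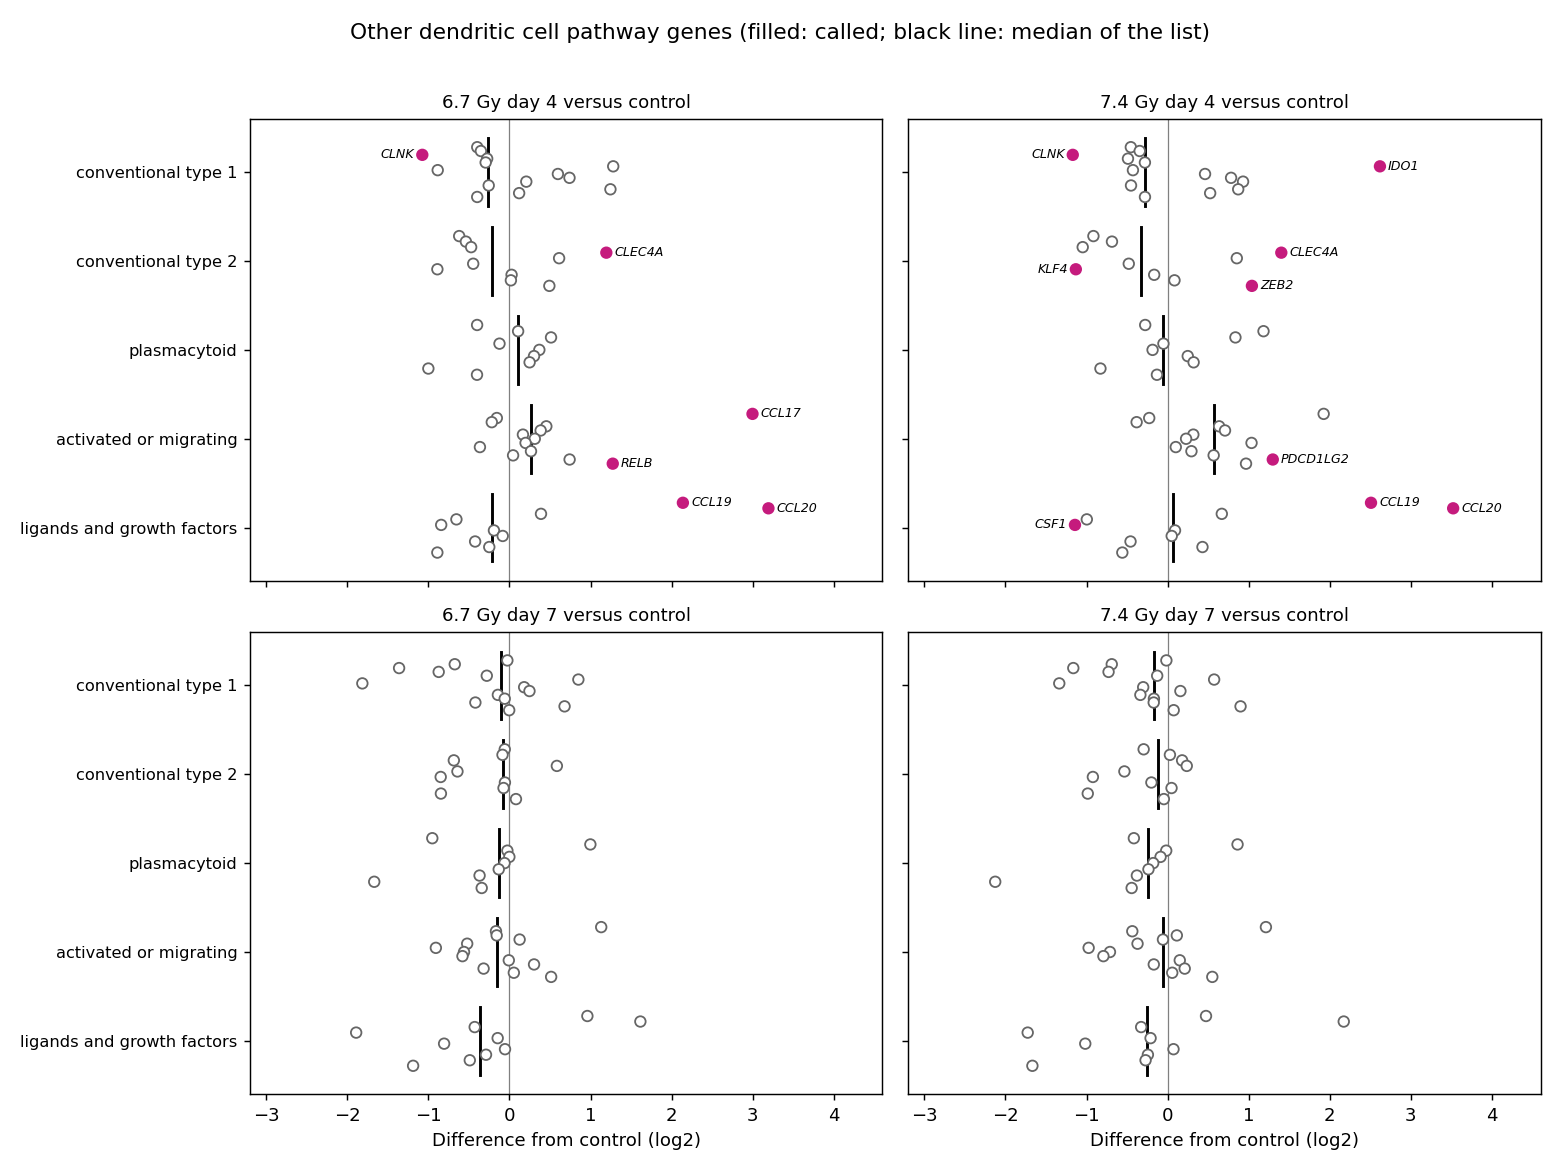
Difference from control (log2) of each tested gene of the 5 dendritic cell pathway lists in the day 4 and day 7 groups. Each point is 1 gene by its brightest probe, filled where called, and the bar is the list median. The called genes sit on day 4, led by CCL20 at 3.19 and 3.52, and none is called on day 7.

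PTPRC and the medians of the T lymphocyte, B lymphocyte and macrophage markers were also lower on day 7, most without a call. PTPRC, the CD45 antigen of all leukocytes, differed by -0.61 and -0.42 on day 4 without a call and fell by 1.53 (adjusted p = 0.0442) and 1.54 (0.0346) on day 7. Its 6.7-Gy call was lost without control replicate 2 or 4 or 6.7 Gy day 7 replicate 1, 3 or 4 (adjusted p of 0.0832 to 0.156). Its 7.4-Gy call was lost without control replicate 2 or 4 or 7.4 Gy day 7 replicate 1, 2 or 4 (0.0621 to 0.122). Of 14 other ways of processing or fitting, 10 ended the 6.7-Gy call of PTPRC and 5 the 7.4-Gy call. T lymphocyte markers lay below control for 10 of 10 genes at both doses on day 7 (53.1% and 48.9% of all genes did), with medians of -1.24 and -0.95. After 6.7 Gy limma called 0 of the 10, and 8 had an unadjusted p under 0.05, as 10.6% of all genes had. Their summed level (on the linear scale, in units of the 75th percentile) was 23.1 to 25.1 in the controls, 11.7 to 16.9 after 6.7 Gy and 10.6 to 17.7 after 7.4 Gy. B lymphocyte markers had day 7 medians of -1.03 and -1.43 over 8 genes, with 0 called and 5 and 6 at an unadjusted p under 0.05, and sums of 2.26 to 7.85 in the controls, 1.24 to 2.02 after 6.7 Gy and 1.14 to 1.54 after 7.4 Gy. Macrophage markers had medians of 0.44 and 0.68 on day 4 and -0.38 and -0.12 on day 7 over 8 genes, with 0 called and 2 and 1 at an unadjusted p under 0.05 on day 7, and sums of 70.5 to 106 in the controls and 52.2 to 122 on day 7. Colon epithelial markers summed to 238 to 264 in the controls, 112 to 161 on day 4 and 232 to 268 on day 7. On day 4, 5 of 10 were called lower at each dose (VIL1, KRT20, CDX2, CA1 and SLC26A3), where 1.98% and 3.98% of all genes were. Neutrophil markers (4 genes) summed to 0.835 to 1.11 in the controls. On day 7 they summed to 0.889 to 2.57 after 6.7 Gy and 0.665 to 1.40 after 7.4 Gy. The medians of these sums were 0.854, 1.02 and 1.03. Plasma cell markers (6 genes) summed to 21.9 to 34.3 in the controls, and to 20.3 to 38.7 and 18.6 to 30.1 on day 7. The part of these shifts in the dendritic cell values was not tested.

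The genes whose levels ran most like CLEC9A over the 24 arrays were TLR10 (Pearson r = 0.896), ARHGAP9 (0.831), HBB (0.810), PLCB2 (0.806), C7H15orf39 (0.796), TMEM156 (0.776), LRMP (0.769) and IL16 (0.766), out of 12720 genes with a value on every array. The arrays share the 7 groups, and after removal of the group means the r ranged from 0.0947 for C7H15orf39 to 0.742 for TLR10. TLR10, a receptor found mainly on B lymphocytes, had control levels of -4.53 to -2.48 and 0 of 4 arrays well above background on day 7 after 7.4 Gy, at least 5.56-fold lower. HBB, the beta chain of hemoglobin, was 61.7-fold lower than control on day 4 after 6.7 Gy and 94.8-fold lower on day 7. Of the other members, FLT3 ranked 53 (r = 0.675, within groups 0.219), CCR7 81 (0.636, within groups 0.627), CD1C 130 (0.600, 0.242) and FCER1A 314 (0.496, 0.131). Those ranks run over the arrays that chose the members and nothing is read from them. BATF3 ranked 5065 and XCR1 7535. PTPRC ranked 14 (0.734). IRF8 was not ranked, having a missing spot.

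**Figure D4:**
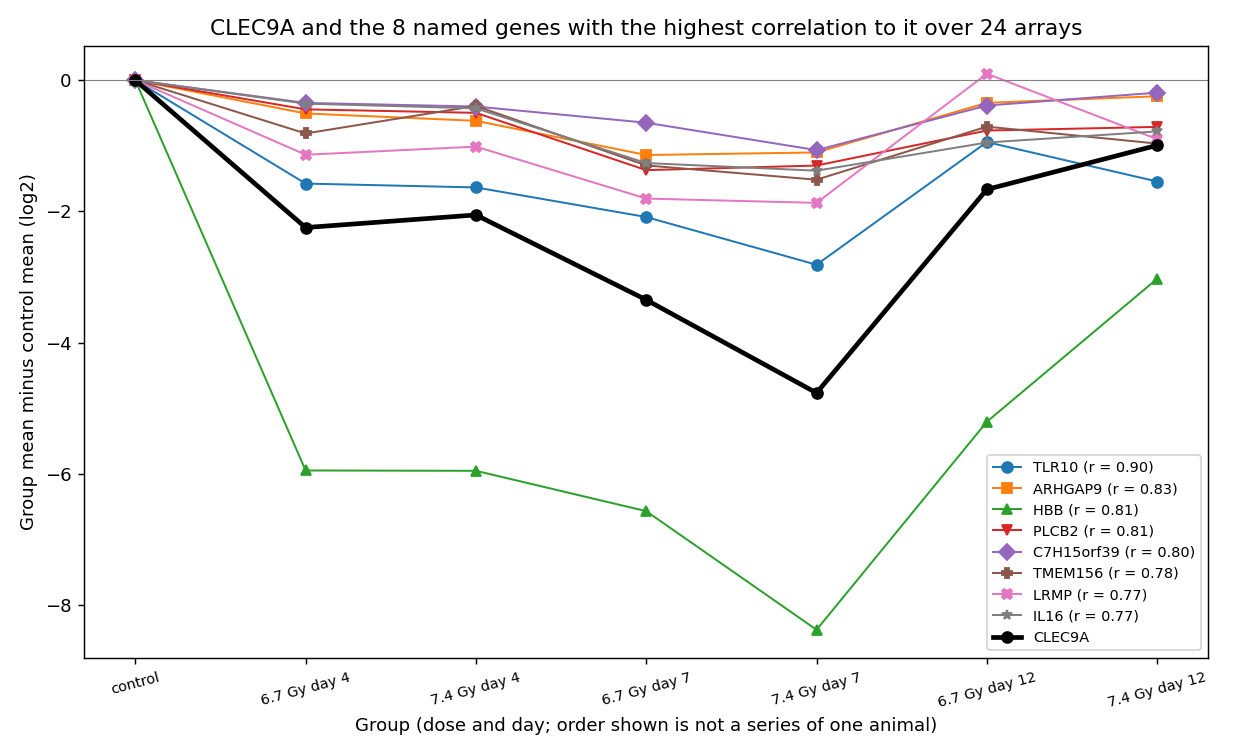
Mean difference from control (log2) across the 7 groups for CLEC9A and the 8 genes whose array values correlated most highly with it. Lines join group means. All show their lowest or near-lowest values on day 7, and HBB has the deepest fall, to -8.37 after 7.4 Gy.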

How the data were processed

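Colon RNA of 24 animals was hybridised to 1-color Agilent rhesus arrays (probe layout on rheMac2). The authors scanned them with Feature Extraction 11.0.1.1 and deposited the scanner intensity per spot, raw intensity for the series and log2 values normalized to the 75th percentile and centred per probe. The raw values equalled the scanner's within 0.001 log2 for 100% of single-spot probes. The normalized log2 table deposited by the authors was used as an alternative.

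Processed signals were log2-transformed, the 75th percentile of each array was subtracted, outlier spots were left out and spots of a probe averaged. Probes entered the fit if 2 or more arrays, whatever their group, showed them well above background, which held for 38220 of 43603. They were fitted with limma 3.58.1 in R 4.3.3 over all 7 groups with Benjamini-Hochberg adjustment, and scripts were tested on simulated data. Names came from the file for 18640 probes, from the gene identifier for 3184 and from accessions for 84 through RefSeq (names only, from another assembly than the probe layout), 1850 had only a LOC number and 19845 none. A gene stood for its brightest tested probe. Array counts limit the precision, and the animals are the replicates.

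The members and lists were chosen with earlier results of these data known. The rule for named genes took all members, genes called in any group from 5 pathway lists (up to 4 per list), the 8 genes most correlated with CLEC9A, PTPRC and markers of other cell types; WDFY4, CCL5, TLR7, TLR9, CD274, SLAMF8, XCL1, FLT3LG and the called epithelial genes were added after their values were seen. One T lymphocyte marker result is not reported here. Day 7 against control chose the members, so it was not tested for them. Alternatives covered background correction, scaling, filters, fits, the methods' t-test, slide, scan day, position and replicate blocks, and omission of each array.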

Additional observations from a re-analysis of the deposited data

Results flagged for a closer look

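One array stood apart from its group. The second IRF8 probe read 1.14 on its highest array on day 4 after 6.7 Gy, with the next highest at 0.32, a gap of 0.832 of the group's range. It was 1 of 60 groups of 4 arrays examined, and chance flags about 1 in 20.

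CCR7 differed between the days after irradiation, with a day 12 level below day 4 over both doses (-1.93, limma adjusted p = 0.0231), lower on 4 of 4 day 12 arrays than on any of the 8 day 4 arrays by the brighter probe. The second probe differed by -0.26, and array position could not be fitted as a block for this comparison.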

How the results depend on the processing

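None of the called differences changed direction under those of 17 other settings that could be fitted for them, or the omission of each of 24 arrays. Called dendritic cell genes (2 at each dose on day 4) were 1 and 1 with normexp background correction, quantile normalization, median scaling, spike-in scaling or a fit of only the groups compared, 0 and 1 with the methods' t-test, and 0 and 0 with array position as a block, with or without scan day. With no filter or slide as a block the 6.7-Gy count was 1, and with the stricter filter the 7.4-Gy count was 1. Genes with a measured mean at least 2-fold lower on day 7 (5 and 5) were 2 and 3 with normexp and 3 and 3 with the stricter filter, which tests fewer genes. With normexp, CLEC9A differed by -1.22 and -1.44 on day 7. The cause of these moves was not tested.

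Called pathway genes on day 4 (6 and 9) after 6.7 Gy were 2 with normexp or only the groups compared, 1 with the t-test or slide, and 3 with position and scan day, and after 7.4 Gy 5 with the t-test or scan day, 16 by adjusted p alone, 15 counting every probe and 2 with position and scan day. On day 7 (0 and 0) they were 1 and 1 with normexp, 1 after 6.7 Gy with quantile, and 3 and 3 counting every probe, which on day 12 gave 1 and 1.

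Leaving out arrays in turn, day 4 member counts ranged from 0 to 2 and from 1 to 3, and pathway counts from 2 to 7 and from 7 to 10. Genes at least 2-fold lower on day 7 ranged from 4 to 6 and stayed at 5, with CLEC9A at -3.87 to -2.92 and -5.10 to -4.59. The pathway count was 1 without control replicate 1 at either dose and without 6.7 Gy day 7 replicate 2, and otherwise 0. The count for day 12 against day 4 ranged from 0 to 1, and counts on day 12 and between doses remained 0.

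Replicate numbers did not pair the animals. Of 62 same-number pairs, 13 correlated over 0.1 (-0.229 to 0.236). With the replicate block the member counts were 2 and 3 on day 4, FLT3 joining at 7.4 Gy (adjusted p = 0.0178), and pathway counts 5 and 9. Array position could not be fitted as a block for day 7 or day 12 against control, nor for day 12 against day 4. Spike-in scaling moved the median of all probes by 0.25 and 0.28 on day 4 and 0.41 and 0.21 on day 12. Dim probes (XCR1, FLT3, CD1C) limit what these arrays can show.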
